A study of Mus musculus with 8 samples.

Results

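The cells described here are mouse blood endothelial cells of mesentery and epididymal adipose tissue. They carry RNA of at least 2 of the 5 markers Ackr1, Cysltr1, Lhx6, Samd5 and Tmem252, a set used as a label for postcapillary venous endothelium. A barcode of the 8 libraries was a member when it had at least 500 UMIs (unique molecular identifiers, each standing for 1 captured RNA molecule), at least 300 genes and at most 10% mitochondrial UMIs, and when at least 2 of the 5 markers had a UMI. It also had fewer than 3 of the 6 venous genes Adgrg6, Selp, Sele, Rnd1, Amigo2 and Slco2a1, at least 1 of the endothelial genes Pecam1 and Cdh5, and no UMI of Gja5, Prox1, Ptprc or Adipoq. Of 23996 cells that met the quality limits, 1111 were members (4.63%). The members were selected on the counts of those 17 genes, and since they were chosen by the RNA counts of these same cells, the values of these genes are given below as a description with no test.

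The mice were male ROSA26-eYFP+/+ Cdh5-CreERT2+ animals, in which tamoxifen lets a recombinase driven by the endothelial Cdh5 promoter switch on a yellow fluorescent reporter. All of them ate tamoxifen diet from 6 weeks of age for 2 weeks, and from 8 weeks of age they ate chow with 5.8% fat or a high fat diet with 60% fat for 12 to 13 weeks. The 4 groups crossed tissue with diet, with mesentery or epididymal adipose tissue taken from mice on chow or on high fat diet. Tissue of 6 mice was pooled for each library, digested with Liberase in the presence of the transcription inhibitor Actinomycin D and sorted, and about 5000 cells per pool were aimed at in the 10x Genomics 3′ preparation. The experiment was done in 2 rounds, called runs A and B, so that n is 2 pools of mice per group.

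Postcapillary and collecting venules are the vessels through which white blood cells leave the circulation. ACKR1 is an atypical chemokine receptor that binds and transports chemokines without the usual G protein signal, and in mice it marks venular endothelium. CYSLTR1 is a receptor for cysteinyl leukotrienes, LHX6 is a LIM homeobox transcription factor, and SAMD5 and TMEM252 are less studied. High endothelial venules are specialised postcapillary venules of lymphoid tissue. They make mucin-type ligands for L-selectin such as GLYCAM1, the gut-homing addressin MADCAM1, and enzymes that complete or release homing signals (CHST4, FUT7, GCNT1 and ENPP2). Capillaries of adipose tissue in contrast carry the machinery of fatty acid uptake, such as GPIHBP1, which anchors lipoprotein lipase, the fatty acid translocase CD36 and the fatty acid binding protein FABP4.

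The promoters of Madcam1, Glycam1 and Ackr1 are shown because these genes separated the members by tissue and by kind in what follows. Each stretch holds the 250 bases before the annotated start, on the strand of the gene, from RefSeq annotation of GRCm38.p6, and all 3 genes were found in that table. The windows are chr10:79664309-79664558 (plus strand) for Madcam1, chr15:103565082-103565331 (minus strand) for Glycam1 and chr1:173333504-173333753 (minus strand) for Ackr1. A pair of motifs was searched on both strands, AAGTG (reverse CACTT), the core bound by NKX2 homeodomain factors, and GGGNNNNNCC (reverse GGNNNNNCCC), a short form of the NF-kappa-B site. Capitals mark the matches.
Madcam1: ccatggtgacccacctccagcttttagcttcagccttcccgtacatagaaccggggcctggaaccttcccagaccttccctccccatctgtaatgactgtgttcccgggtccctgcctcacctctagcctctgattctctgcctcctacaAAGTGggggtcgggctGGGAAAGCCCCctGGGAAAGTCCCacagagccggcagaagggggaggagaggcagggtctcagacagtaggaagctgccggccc
Glycam1: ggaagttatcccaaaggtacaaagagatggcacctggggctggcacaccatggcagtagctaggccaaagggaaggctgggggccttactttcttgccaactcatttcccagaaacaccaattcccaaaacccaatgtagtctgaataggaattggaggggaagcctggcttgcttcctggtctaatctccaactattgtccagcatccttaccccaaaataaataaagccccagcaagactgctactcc
Ackr1: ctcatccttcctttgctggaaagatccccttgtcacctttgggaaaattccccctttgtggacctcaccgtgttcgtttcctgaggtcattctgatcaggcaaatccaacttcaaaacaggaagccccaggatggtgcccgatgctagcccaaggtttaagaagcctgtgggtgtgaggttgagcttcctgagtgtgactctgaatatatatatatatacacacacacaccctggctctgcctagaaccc
The Madcam1 window held 1 AAGTG match and 4 overlapping GGGNNNNNCC matches, which the capitals join into 2 stretches. The Glycam1 and Ackr1 windows held neither motif. Among 32851 promoter windows of the same length, 40.7% held AAGTG and 45.8% held GGGNNNNNCC, so that neither is rare, and a match is a description of the letters only.

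Depth and cell number differed far more between runs than between groups. Run A gave 56 members, which were 12 from mesentery on chow, 19 from adipose on chow, 12 from mesentery on high fat diet and 13 from adipose on high fat diet. Run B gave 1055 members, in the same order 162, 164, 318 and 411. Run A libraries held 3461360 to 6714473 UMIs and run B libraries 18829960 to 36779289, and run A gave 2.6% of all UMIs of the members. A single UMI was therefore worth 13.4 to 23.38 CPM (the count of a gene scaled to the same total in every library) in the members of run A and 0.32 to 0.91 CPM in those of run B. Low values of run A therefore rest on very few molecules. No barcode of a member was shared between libraries, and 54 members (4.9%) were called as doublets.

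The label was borne out in part. Tmem252 had a UMI in 78.5% of the members of run B and 89.3% of those of run A, and Lhx6 in 63.4% and 10.7%. Samd5 was detected in 53.4% (run B) and 23.2% (run A), and Cysltr1 in 37.2% and 30.4%. Ackr1, the gene the label leads with, was detected in 19.8% of the members of run B against 62.5% of those of run A. In run B its share was 38.3% in mesentery on chow, 15.2% in adipose on chow, 11.01% in mesentery on high fat diet and 21.2% in adipose on high fat diet. In run A the shares in that order were 66.7%, 68.4%, 75.0% and 38.5%, so that every library of run A lay above the highest of run B. In cells with Ptprc, the pan-leukocyte gene, which should lack these markers, the shares in run B were 1.1% for Ackr1, 26.3% for Cysltr1, 2.4% for Lhx6, 2.2% for Samd5 and 4.1% for Tmem252. Leukocytes themselves make Cysltr1, so its share there is no background. Over both runs 244 of 1111 members (22.0%) had Ackr1.

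**Figure D1:**
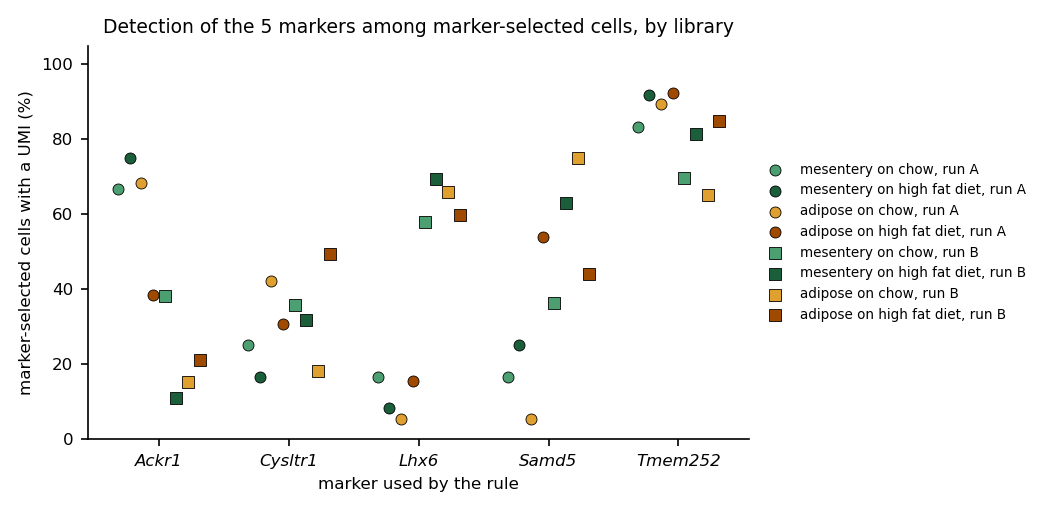
Percent of members with at least 1 UMI of each of the 5 markers (horizontal axis: marker; vertical axis: percent of members), by library. Tmem252 is detected in most members in both runs, while Ackr1 is detected in 62.5% of the members of run A and 19.8% of those of run B.

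Most members stood close to the limits of the rule. Exactly 2 markers were detected in 689 members (62.0%), 3 in 299 (26.9%), 4 in 108 (9.7%) and all 5 in 15 (1.4%). Just outside the rule lay 2122 cells with 1 marker and 261 cells with 3 of the 6 venous genes. None of those 6 genes was detected in 538 members, 1 in 310 and 2 in 263, with Selp (P-selectin) in 29.0% and Slco2a1, a prostaglandin transporter, in 19.2%. The commonest pair was Lhx6 with Tmem252, in 487 members (43.8%), followed by Samd5 with Tmem252 in 401 (36.1%). The pair that names the population, Ackr1 with Cysltr1, was found in 107 members (9.6%). The condition that removed most cells was the absence of Adipoq, the adipocyte hormone adiponectin, which was detected in 407 of the 1602 cells (25.4%) that met the marker, venous and endothelial conditions. In run B it took the count from 427 to 164 in adipose on chow and from 230 to 162 in mesentery on chow.

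The members were a mixture by the genes of other vessel segments. At least 3 of the 6 capillary genes Gpihbp1, Rgcc, Cd300lg, Car4, Timp4 and Tcf15 were detected in 800 members (72.0%). At least 3 of the 6 high endothelial venule genes Glycam1, Madcam1, Chst4, Fut7, Gcnt1 and Enpp2 were detected in 44 (4.0%), which are counted as members with high endothelial genes whatever their capillary genes. Of the others, 796 (71.6%) had the capillary set and 271 (24.4%) had neither. The parts differed in depth, with median UMIs per library of run B from 14155 to 27812 with high endothelial genes, 4824 to 7534 with capillary genes and 3213.5 to 3378 with neither, and the part of depth in this split was not tested. This split was made after the values were seen and is a description. Ackr1 followed it, with a UMI in 97.7% of the members with high endothelial genes, 47.2% of those with neither set and 9.2% of those with capillary genes. The part with capillary genes held 44.4% of the members of mesentery on chow in run B, 82.9% of adipose on chow, 78.3% of mesentery on high fat diet and 80.0% of adipose on high fat diet. In run A it held 10 of 56 members, 0 of them from adipose on chow. Of the 44 members with high endothelial genes, 34 came from mesentery on chow of run B, 2 from mesentery on chow of run A, 5 from mesentery on high fat diet of run A, 2 from mesentery on high fat diet of run B and 1 from adipose on high fat diet of run B.

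**Figure D2:**
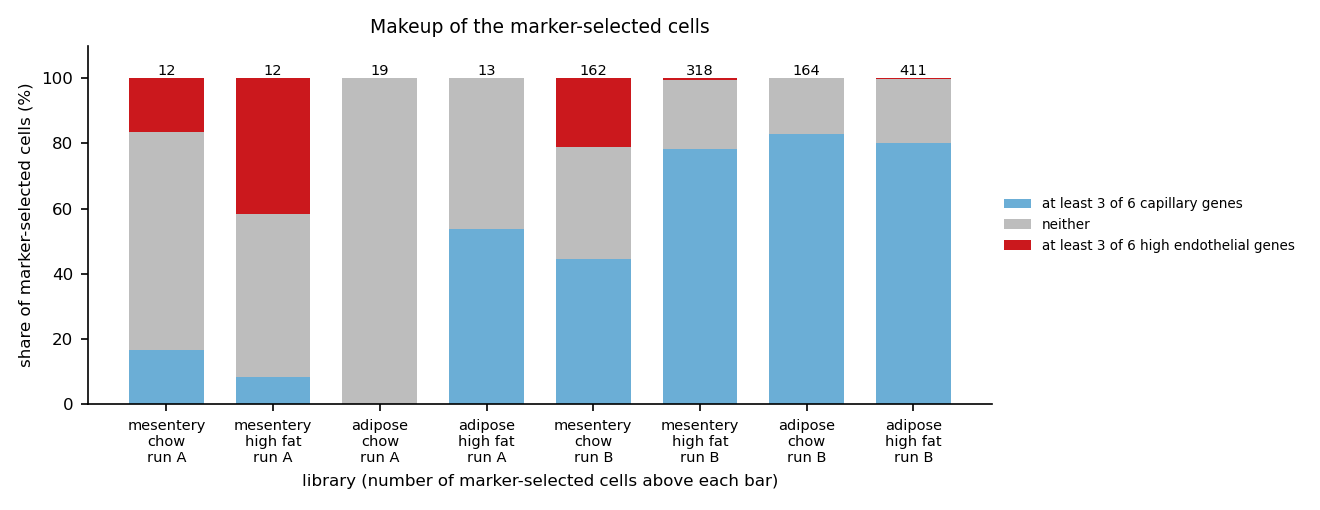
Members of each library split into those with at least 3 of 6 high endothelial venule genes, those with at least 3 of 6 capillary genes and those with neither (vertical axis: percent of members; the number of members stands with each library). The part with capillary genes holds 71.6% of all members, and 34 of the 44 members with high endothelial genes come from mesentery on chow of run B.

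The 44 members with high endothelial genes carried several other genes at higher levels than the rest. Over the 4 libraries of run B together, which differ in their make-up, Glycam1 stood at 61410 CPM in them, against 59.7 CPM in the members with neither set and 0.61 CPM in those with capillary genes. The corresponding values of Madcam1 were 2331, 29.9 and 1.82 CPM, and those of Fut7, the fucosyltransferase that builds sialyl Lewis X, were 380.3, 1.11 and 0 CPM. These 3 genes were part of the split. Genes outside it went the same way: Clu (clusterin) stood at 4859, 468.9 and 45.4 CPM, Dsg2, a desmosomal cadherin, at 474.5, 4.42 and 0.30 CPM, and Serpina1e, an alpha-1 antitrypsin gene, at 823.4, 1.11 and 0 CPM. Serpina1e and Serpina1b belong to a family of near-identical copies, so the division of reads among them is uncertain. Lrg1, a leucine-rich glycoprotein of activated venular endothelium, stood at 3950, 1432 and 300.8 CPM. The marker Samd5 was at 0 CPM in these cells of run B, against 203.5 CPM in the members with neither set, so the members with high endothelial genes entered through the other markers. In the whole series 258 cells had at least 3 of the 6 high endothelial genes, of which 44 were members. Only 116 met the conditions on Pecam1 or Cdh5 and on the absent genes, Ptprc being detected in 17 of the 258. Of those 116, 44 had fewer than 2 markers and 33 had 3 or more of the venous genes, and a cell could miss both conditions.

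The members with neither set carried the venous genes, and those with capillary genes the lipid genes. Vwf, the von Willebrand factor, stood in run B at 1363 CPM in members with neither set, 425.7 CPM with high endothelial genes and 86.6 CPM with capillary genes. Nr2f2, which encodes the venous transcription factor COUP-TFII, stood at 366.0, 273.9 and 126.9 CPM, and Plvap, which forms the diaphragms of fenestrae and caveolae, at 2166, 1895 and 469.6 CPM. Bgn (biglycan, a matrix proteoglycan) was at 614.8 CPM with neither set, 134.9 CPM with capillary genes and 3.49 CPM with high endothelial genes. In the members with capillary genes Cd36 reached 6049 CPM, against 2601 CPM with neither set and 54.1 CPM with high endothelial genes. Fabp4 stood at 52090, 21260 and 1664 CPM in the same order. The level of Fabp4 in members with neither set, over run B together, lay above its mean over all 8 libraries in the venous cells described next. These measures cover different libraries, so the comparison is not like with like.

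The members were then compared, within each library, with 2 other gated classes. The first were 826 venous cells with at least 3 of the 6 venous genes and fewer than 2 of the markers. The second were 5894 capillary gated cells with at least 3 of the 6 capillary genes, fewer than 2 markers and fewer than 3 venous genes. Since gates on RNA drew all classes, the counts below describe what goes along with the gates, and the gate genes were left out of them. Counts were summed per library and class and tested with edgeR's quasi-likelihood test with library as block, and genes with a p under 0.05 after Benjamini-Hochberg adjustment over all genes tested count as called.

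Against the venous cells the members had less RNA of venous identity genes and more of capillary and lipid uptake genes. The test called 535 of 3236 genes (16.5%), 223 higher (6.89%) and 312 lower (9.64%) in the members. With every cell thinned to 1000 UMIs before the gates were applied, 26 of the 361 genes that could still be tested were called. Vwf averaged 481.5 ± 352.7 CPM in the members and 3093 ± 462.8 CPM in the venous cells (SD, n = 8 libraries), a log2 difference of -2.99 (SE 0.31, edgeR adjusted p = 4.55e-06), and was lower in 8 of 8 libraries. Nr2f2 was lower as well, at 151.5 ± 76.7 against 355.1 ± 135.9 CPM (log2 -1.24, edgeR adjusted p = 0.0008). Of 14 venous identity genes tested, 7 were lower and 1, the apelin receptor gene Aplnr, was higher (225.4 ± 130.2 against 23.0 ± 38.1 CPM, log2 3.83). Other genes lower in 8 of 8 libraries were the kinase gene Bmx (log2 -4.52), the heparan sulfatase Sulf2 (log2 -4.58), the ferroxidase Cp (log2 -4.56), the glutamate receptor subunit Gria3 (log2 -4.80), the membrane glycoprotein Gpm6a (log2 -5.23), Tmem158 (log2 -4.21) and the transcription factor gene Gata6 (log2 -3.02). Endothelin 1 (Edn1, log2 -2.62) and the protein C receptor Procr (log2 -2.38) were lower in the members too.

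Leukocyte adhesion genes differed in part between the members and the venous cells. Of 11 tested, 4 were lower in the members, among them Vcam1 (log2 -1.78, edgeR adjusted p = 5.5e-05) and Icam1 (log2 -1.16, edgeR adjusted p = 0.00787). Lrg1 did not pass (log2 -0.38, SE 0.50, edgeR adjusted p = 0.685), and neither did Plvap (log2 -0.85, SE 0.31, edgeR adjusted p = 0.0728). Of 12 genes of the BMP and TGF-beta pathways 7 were lower, among them Bmp4 (log2 -2.72). Matrix genes divided, with 5 of 14 higher and 5 lower. The basement membrane collagens Col4a1 (log2 2.32) and Col15a1 (log2 2.66) were higher, and Bgn (log2 -2.65) and the matrix Gla protein Mgp (log2 -4.26) lower. Of 9 capillary and lipid uptake genes, 8 were higher in the members. Fabp4 averaged 26200 ± 20720 against 6041 ± 4806 CPM (log2 2.05, SE 0.45, edgeR adjusted p = 0.00395) and was higher in 6 of 8 libraries. Cd36 (log2 1.91) and Fabp5 (log2 2.43) were higher in 7 of 8 libraries. The VEGF receptor gene Kdr was higher in 8 of 8 (log2 0.92). The capillary gene Gpihbp1, which did not gate the venous cells, averaged 1253 ± 1181 against 109.9 ± 136.1 CPM, and Cd300lg 598.2 ± 307.0 against 58.1 ± 33.7 CPM.

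Against the capillary gated cells the direction was the opposite for most of these genes. The test called 743 of 6915 genes (10.7%), 423 higher (6.12%) and 320 lower (4.63%) in the members, and with cells thinned to 1000 UMIs 269 of the 675 genes that could still be tested were called. Of 13 venous identity genes tested, 12 were higher, with a list median of 1.56 on the log2 scale. Vwf averaged 481.5 ± 352.7 CPM in the members and 75.6 ± 79.9 CPM in the capillary gated cells (SD, n = 8; log2 3.15, SE 0.13, edgeR adjusted p = 5.55e-13). Lrg1 averaged 1421 ± 961.2 against 125.0 ± 172.7 CPM (log2 3.69, SE 0.38, edgeR adjusted p = 7.26e-07). Vcam1 averaged 242.7 ± 198.5 against 32.0 ± 30.5 CPM (log2 2.73, SE 0.18, edgeR adjusted p = 1.72e-09). Ptgs1, which encodes the constitutive prostaglandin synthase COX-1, averaged 168.4 ± 83.3 against 30.3 ± 19.7 CPM (log2 2.63), and these 4 genes were higher in 8 of 8 libraries. Nr2f2 (log2 1.5), Plvap (log2 1.56), Icam1 (log2 1.82), Bmp4 (log2 1.96) and Bgn (log2 1.81) were higher as well. Compared with both classes, the members thus stood between them in Vwf, Nr2f2, Vcam1, Icam1, Bmp4 and Bgn, each called in both tests with opposite signs.

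Cytokine receptors and antigen presentation genes were higher in the members than in the capillary gated cells. Of 13 cytokine signalling genes 8 were higher. Il6st, the gp130 chain shared by receptors of the interleukin 6 family, averaged 704.0 ± 254.2 against 191.7 ± 49.4 CPM (log2 1.72, SE 0.13, edgeR adjusted p = 5.85e-09). The leukaemia inhibitory factor receptor Lifr (log2 1.22), the interleukin 1 receptor Il1r1 (log2 1.78) and the leptin receptor Lepr (log2 3.31) were also higher. All 4 MHC class II genes tested were higher, Cd74 by 1.87, H2-Aa by 1.52, H2-Ab1 by 1.38 and H2-Eb1 by 1.45 on the log2 scale. The venous cells mostly stood above the members in the summed MHC class II genes. In mesentery on chow the sum was 2300 against 935.1 CPM (run A) and 632.7 against 528.3 CPM (run B). Mesentery on high fat diet of run A was the exception, at 455.0 CPM in venous cells and 3257 CPM in members. Pglyrp1, a peptidoglycan recognition protein, was higher by 4.18 on that scale.

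Arterial and lipid genes were lower in the members than in the capillary gated cells. Of 13 arterial identity genes 11 were lower, including the connexin 37 gene Gja4 (9.24 ± 8.62 against 78.7 ± 38.2 CPM, log2 -1.97, edgeR adjusted p = 3.23e-07), the Notch target Hey1 (log2 -1.67), Efnb2 (log2 -1.42) and Sox17 (log2 -0.73). Of 8 capillary and lipid uptake genes 6 were lower, with Fabp4 at log2 -0.68. The retinol binding protein gene Rbp7 averaged 235.6 ± 299.7 against 889.3 ± 413.7 CPM (log2 -2.10, SE 0.30, edgeR adjusted p = 5.27e-05). Mmrn1 (log2 -3.37), Tgfb2 (log2 -2.54), Igfbp3 (log2 -1.70) and fibronectin Fn1 (log2 -1.69) were lower too. Whether diet changed the members differently from the venous cells was tested with an interaction term, and edgeR called 0 of 3236 genes in mesentery and 0 in adipose. Before adjustment 61 and 54 had a p under 0.05, and DESeq2 also called 0 and 0.

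The share of members among blood endothelial cells (cells with Pecam1 or Cdh5 and none of Prox1, Ptprc or Adipoq) differed more between runs than between groups. In run B it was 6.16% (162 of 2632, exact 95% binomial interval 5.27 to 7.14%) in mesentery on chow and 6.33% (164 of 2589) in adipose on chow. On high fat diet it was 14.1% (318 of 2250, interval 12.7 to 15.6%) in mesentery and 13.3% (411 of 3083) in adipose. In run A it was 1.36% (12 of 880, interval 0.71 to 2.37%) in mesentery on chow, 2.09% (19 of 909) in adipose on chow, 3.34% (12 of 359) in mesentery on high fat diet and 2.05% (13 of 633) in adipose on high fat diet. The intervals cover counting error only. High fat diet libraries were thus higher in both tissues of run B and in mesentery of run A, and level with chow in adipose of run A.

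With 2 libraries per group the diet difference was not larger than the spread between runs. The log2 difference, high fat diet minus chow, was 1.25 in mesentery (exact two-sided permutation p = 0.667, smallest possible 0.333) and 0.52 in adipose (exact permutation p = 1.0). Over both tissues it was 0.89 (exact permutation within tissues, p = 0.444, smallest possible 0.056), and with labels permuted within runs p was 0.25 (smallest possible 0.125). Mesentery minus adipose was 0.03 (exact permutation p = 0.889). Depth moved with the rule, since members of run B had a median of 4736.5 to 6523 UMIs and capillary gated cells 2922 to 3953. With every cell thinned to 1000 UMIs, 1105 shallower cells of run A and 1669 of run B were left out. The same rule, applied anew to the thinned counts, gave 335 members. Thinning also removes UMIs of the 6 venous genes, so cells that these had excluded could enter. In mesentery on chow of run A the members went from 12 to 37. Before thinning, 171 cells of that library had at least 2 markers but 3 or more venous genes. The part of such cells in the thinned shares was not tested. The shares were then 4.08, 1.14, 0.79 and 1.86% in run A and 2.49, 1.22, 3.46 and 3.34% in run B (chow first, and mesentery before adipose within each diet). The difference by diet in mesentery then turned to -0.94 and the one over both tissues to 0.07 (exact permutation p = 1.0). In adipose the difference by diet went from 0.52 to 1.08 (exact permutation p = 0.333, the smallest possible). A difference in share was not detectable with these libraries.

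**Figure D3:**
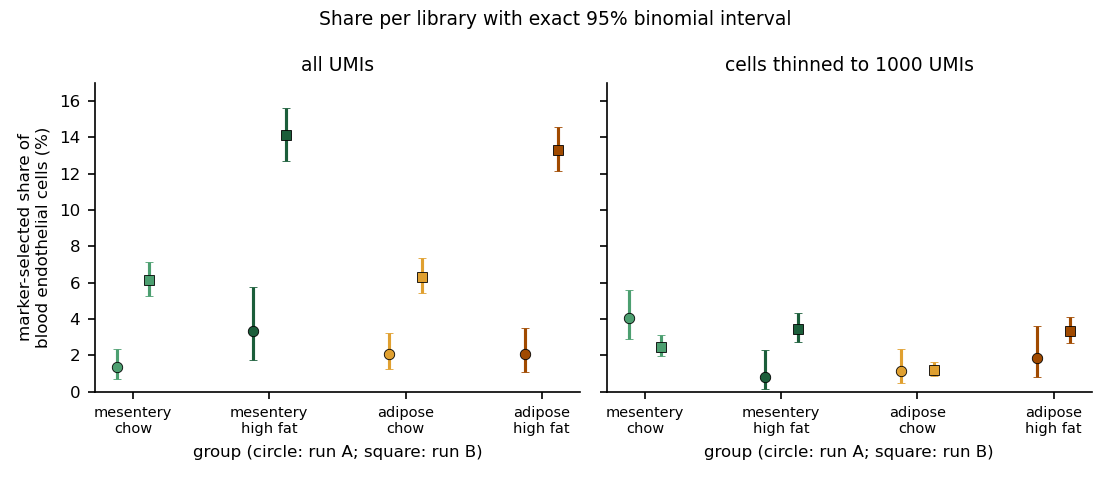
Members as a percent of blood endothelial cells in each library (vertical axis), as counted and with every cell thinned to 1000 UMIs (bars: exact 95% binomial intervals, counting error only). The high fat diet libraries of run B stand at 14.1 and 13.3% against 6.16 and 6.33% on chow (mesentery first). After thinning they stand at 3.46 and 3.34% against 2.49 and 1.22%, a smaller gap in percentage points.

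Differences between groups within the members were tested on counts summed per library over 8246 genes. Without the run in the model edgeR called 0 genes in each of the comparisons by diet in mesentery, diet in adipose, tissue on chow and tissue on high fat diet. Before adjustment 116, 41, 171 and 72 genes had a p under 0.05. DESeq2 without the run called 0, 0, 2 and 0 genes, and limma-voom 34, 0, 0 and 0. The fit without the run had been set as the main test, and run as a block as an alternative to it. Samples of the same run deviated together to a limited degree (r 0.168 to 0.284), and the runs also differ in depth and processing. Run letters were taken to pair the samples. The values below come from edgeR with run as a block, the alternative, unless said otherwise. These blocked calls rest on n = 2 pairs of libraries, with almost all UMIs from run B.

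On chow the members of the 2 tissues differed. Mesenteric members had the genes of high endothelial venules and of antigen presentation, and adipose members had more of 3 vasoactive receptor genes. With run as a block, 117 of 8246 genes (1.42%) were called, 90 higher in mesentery (1.09%) and 27 higher in adipose (0.327%). Of 10 high endothelial venule genes 6 were higher in mesentery, against a median log2 difference of all genes near 0. DESeq2 with the run called 16 genes in all and limma-voom 40. Without the members with capillary genes edgeR with run as a block called 19 of 2125 genes. Here and below this fit leaves out all 800 members with at least 3 capillary genes, also those with high endothelial genes. In run B they were 46.3% of the members of mesentery on chow and 82.9% of adipose on chow. The part of this makeup in the calls was not tested.

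Glycam1 stood at 5571 CPM (run A) and 29190 CPM (run B) in mesentery on chow and at 0 in both adipose libraries on chow. It was at least 12280-fold higher in mesentery, taking 3 counts over the adipose group as the floor (edgeR with run as a block, adjusted p = 1.29e-25). Madcam1 stood at 272.7 and 1207 CPM against 0 and 0, at least 508.5-fold (edgeR with run as a block, adjusted p = 6.8e-19). Nkx2-3, the homeobox factor of gut and spleen vasculature, stood at 233.8 and 98.9 CPM against 0 and 0, at least 45.8-fold (edgeR with run as a block, adjusted p = 6.52e-10). For these 3 genes both mesenteric libraries on chow lay above both adipose ones, as they did for 868 of all 8246 genes (10.5%). Within mesentery on chow of run B, Nkx2-3 stood at 298.7 CPM in members with neither set, 81.6 CPM in those with high endothelial genes and 20.9 CPM in those with capillary genes.

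The enzymes went the same way. Fut7 stood at 19.5 CPM in run A and 182.2 CPM in run B of mesentery on chow, against 0 in adipose. The sulfotransferase gene Chst4 stood at 58.4 and 86.1 CPM, and Gcnt1, which branches O-glycans, at 38.96 and 66.8 CPM, both against 0 in adipose. Enpp2, which encodes autotaxin, the producer of lysophosphatidic acid, stood at 1013 and 1122 CPM against 46.8 and 12.6 CPM (log2 5.96, SE 0.61, edgeR with run as a block, adjusted p = 3.72e-15). Clu stood at 2669 and 2542 CPM against 444.6 and 103.4 CPM (log2 4.0, SE 0.48). Serpina1e (97.4 and 425.7 CPM) and Dsg2 (194.8 and 217.9 CPM) were at 0 in both adipose libraries.

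**Figure D4:**
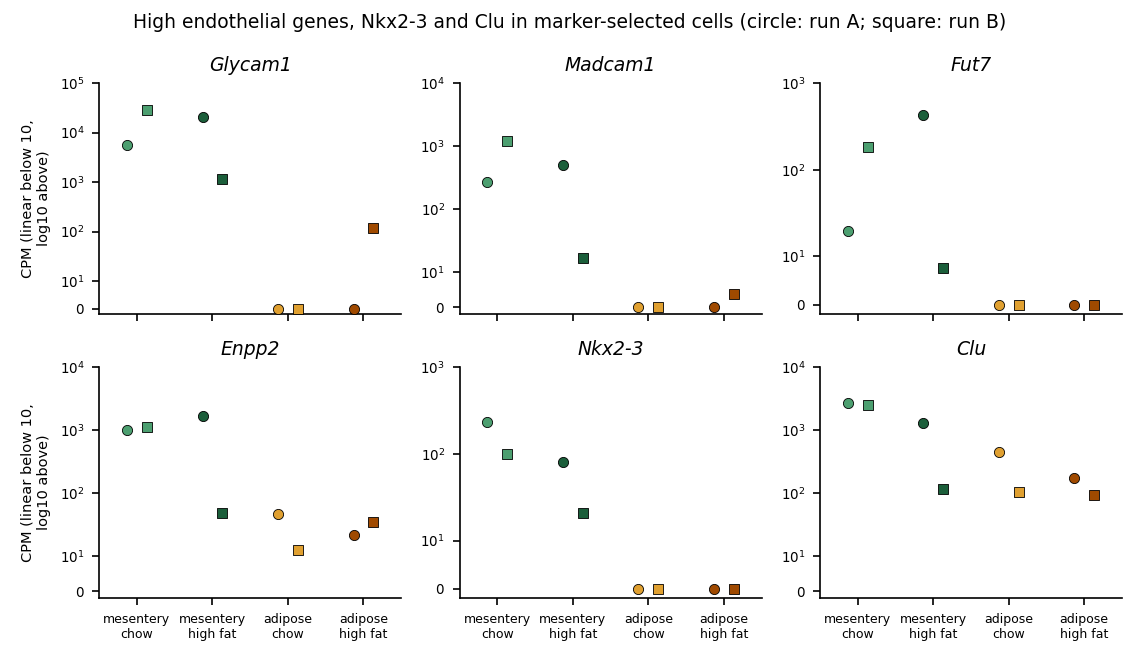
CPM of 4 high endothelial venule genes, Nkx2-3 and Clu in the members of each library (vertical axis: CPM, linear below 10 and log10 above; circles: run A, squares: run B, 1 point per library). Glycam1 and Madcam1 are detected in all 4 mesenteric libraries and at 0 in both adipose libraries on chow, and for both the order of chow and high fat diet in mesentery is opposite in runs A and B.

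Values of other cells of the same libraries stand beside these results. Glycam1 was detected in 22.8% of the members of mesentery on chow in run B, against 6.87% of the Ptprc cells and 2.87% of the capillary gated cells of the same library. In run A the shares were 25.0% in members, 14.5% in Ptprc cells and 5.71% in capillary gated cells. The summed lymphocyte markers stood at 19.5 and 23.8 CPM in the members of mesentery on chow and at 0 in both adipose libraries on chow, with 11 of 11 markers detected somewhere in the members and none of them above 32 UMIs. Their part in the result was not tested. With the members that had high endothelial genes left out, 27 genes were called for tissue on chow in place of 117. Of the 117 genes, 69 could then be tested and 21 were still called.

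Antigen presentation genes separated the tissues on chow as well. Cd74, the invariant chain, stood at 740.3 and 350.7 CPM in mesentery against 117.0 and 12.6 CPM in adipose (log2 4.20, SE 0.56, edgeR with run as a block, adjusted p = 1.4e-09). H2-Ab1 stood at 58.4 and 49.4 CPM against 0 and 1.58 CPM, and H2-Aa at 97.4 and 48.5 CPM against 0 and 7.89 CPM, so 3 of 6 MHC class II genes were higher in mesentery. The interleukin 1 receptor gene Il1r1 stood at 175.3 and 98.0 CPM against 23.4 and 15.8 CPM (log2 2.75, SE 0.58). Lepr stood at 175.3 and 150.2 CPM against 70.2 and 30.8 CPM (log2 2.26, SE 0.56). Both mesenteric libraries lay above both adipose ones for these 5 genes, as was so for 10.5% of all genes. The tissue difference in MHC class II genes was not particular to the members. In capillary gated cells on chow their sum was 966.2 and 117.1 CPM in mesentery against 22.02 and 14.59 CPM in adipose (run A first). In venous cells it was 2300 and 632.7 CPM against 604.4 and 417.7 CPM.

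Genes higher in adipose on chow included 3 vasoactive receptors and 1 of 14 capillary and lipid uptake genes. The endothelin receptor Ednrb stood at 46.8 CPM (run A) and 198.9 CPM (run B) in adipose against 0 and 21.1 CPM in mesentery (log2 -3.06, mesentery minus adipose, SE 0.60, edgeR with run as a block, adjusted p = 0.000208). The natriuretic peptide clearance receptor Npr3 was at 0 in run A in both tissues and at 153.1 against 11.9 CPM in run B. The adenosine receptor Adora2a was likewise at 0 in run A and at 59.2 against 5.49 CPM in run B. These are the 3 of 10 permeability and vasoactive receptor genes that were lower in mesentery, and 2 of them rest on run B alone. The heparin-binding growth factor Ptn stood at 187.2 and 57.6 CPM in adipose against 0 and 0.92 CPM in mesentery (log2 -5.90). Rbp7 stood at 23.4 and 442.8 CPM in adipose against 0 and 55.9 CPM (log2 -2.81), and Gpihbp1, the 1 of those 14 that passed, at 234.0 and 3228 CPM against 58.4 and 768.2 CPM (log2 -1.81). Of run B, leaving out adipose on chow gave 0 calls for tissue on chow, mesentery on chow 1, adipose on high fat diet 11 and mesentery on high fat diet 48. In each of these fits the filter left fewer genes to test, between 2180 and 2216.

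On high fat diet fewer genes separated the tissues. With run as a block 20 of 8246 genes (0.243%) were called, 14 higher in mesentery and 6 higher in adipose, and 4 of 10 high endothelial venule genes were higher in mesentery. DESeq2 and limma-voom with the run called 0 (71 and 104 genes had a p under 0.05 before adjustment), and edgeR with run as a block called 0 of 2125 genes without the members with capillary genes (45 before adjustment). Glycam1 stood at 20580 CPM (run A) and 1142 CPM (run B) in mesentery against 0 and 119.1 CPM in adipose (log2 7.16, SE 0.77, edgeR with run as a block, adjusted p = 2.35e-13). With at least 3 of the 5 markers required its difference turned to -4.64 with run as a block. Members with high endothelial genes numbered 5 (run A) and 2 (run B) in mesentery on high fat diet, and 1 (run B) in adipose. The part of these few cells in the difference of Glycam1 was not tested. Fut7 stood at 429.0 and 7.598 CPM and Nkx2-3 at 80.4 and 20.5 CPM, each against 0 in both adipose libraries, at least 20.1-fold and 23.2-fold. Enpp2 stood at 1676 and 47.9 CPM against 22.1 and 34.6 CPM (log2 3.22). Higher in adipose were Lgals3, which encodes galectin 3 (176.8 and 239.5 against 26.8 and 21.7 CPM, log2 -3.17), and the macrophage genes Mmp12 and Lyz2. The summed macrophage markers stood at 154.7 and 293.9 CPM in the adipose members on high fat diet and at 13.4 and 43.7 CPM in the mesenteric ones, and their part in these 3 calls was not tested. Of run B, leaving out adipose on chow gave 0 calls, adipose on high fat diet 3, mesentery on chow 4 and mesentery on high fat diet 44.

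Within mesentery, members on high fat diet had more RNA of single genes such as Angptl4, Rbp7 and Car4 and less of Mgp and of 2 adipocyte genes. Also called lower were 3 high endothelial genes, but of these Madcam1 rose in run A. With run as a block 79 of 8246 genes (0.958%) were called, 25 higher (0.303%) and 54 lower (0.655%) on high fat diet. Without the members with capillary genes 2 of 2125 genes were called. In run B the members so left out were 46.3% of the mesenteric members on chow and 78.3% on high fat diet. The part of this makeup in the calls was not tested. Angptl4, a secreted inhibitor of lipoprotein lipase, stood at 0 CPM on chow and 308.3 CPM on high fat diet in run A and at 43.95 and 313.8 CPM in run B (log2 3.39, SE 0.55, edgeR with run as a block, adjusted p = 6.45e-06). It was called in 5 of 8 fits that left out 1 library. Rbp7 stood at 0 and 26.8 CPM in run A and at 55.9 and 415.6 CPM in run B (log2 2.81, SE 0.56, edgeR with run as a block, adjusted p = 0.000558). The mitochondrial carrier gene Ucp2 stood at 38.96 and 201.1 CPM in run A and at 67.8 and 218.1 CPM in run B (log2 1.97), and Inhbb, an activin subunit, at 58.4 and 268.1 CPM and at 8.24 and 49.8 CPM (log2 2.63). The carbonic anhydrase Car4, a capillary gene, was at 0 in both libraries of run A and rose from 115.4 to 597.6 CPM in run B (log2 2.17). All 14 capillary and lipid uptake genes tested had positive values, with a median of 0.91, but Car4 was the single one of them that passed; Gpihbp1 stood at log2 1.19 (edgeR with run as a block, adjusted p = 0.459) and Fabp4 at 0.84 (adjusted p = 1.0).

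Genes lower on high fat diet in mesentery included Mgp, which fell from 1013 to 268.1 CPM in run A and from 264.6 to 33.4 CPM in run B (log2 -2.57, SE 0.43, edgeR with run as a block, adjusted p = 1.72e-05). Lepr fell from 175.3 to 40.2 CPM and from 150.2 to 39.9 CPM (log2 -2.01), and Cyp26b1, a retinoic acid hydroxylase, from 77.9 to 13.4 CPM and from 184.0 to 31.5 CPM (log2 -2.46). The interferon-induced chemokine Cxcl10 fell from 194.8 to 13.4 CPM and from 63.2 to 9.12 CPM (log2 -2.83), and Nkx2-3 from 233.8 to 80.4 CPM and from 98.9 to 20.5 CPM (log2 -2.08). Both runs moved the same way for these 5 genes. Lyve1, a hyaluronan receptor known from lymphatic vessels and macrophages, fell from 233.8 to 0 CPM and from 114.4 to 1.14 CPM (log2 -6.31). The summed lymphatic genes other than Ccl21a (left out because its symbol has 2 gene IDs and high endothelial venules also make it), with Prox1 at 0 by the rule and Lyve1 among them, stood at 272.7 and 13.4 CPM on chow and high fat diet in run A and at 131.8 and 34.95 CPM in run B, and their part in the change of Lyve1 was not tested.

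For the high endothelial genes the runs went different ways. Of 10 tested, 3 were lower on high fat diet with run as a block. The 6 high endothelial genes of the split summed to 6974 CPM on chow and 23300 CPM on high fat diet in run A. In run B their sum was 31860 and 1218 CPM. Madcam1 (log2 -2.94, SE 0.71, edgeR with run as a block, adjusted p = 0.0101) stood at 272.7 CPM on chow and 509.4 CPM on high fat diet in run A and at 1207 and 17.1 CPM in run B. Glycam1, which did not pass (log2 -0.47, SE 0.73, edgeR with run as a block, adjusted p = 1.0), stood at 5571 and 20580 CPM in run A and at 29190 and 1142 CPM in run B. Clu was below its chow level in both runs of high fat diet, at 2669 and 1287 CPM and at 2542 and 118.5 CPM (log2 -2.73, edgeR with run as a block, adjusted p = 2.56e-05), but with the members that had high endothelial genes left out its adjusted p was 1.0. In that fit 45 genes were called in place of 79, and 28 of the 79 were among them.

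Adipocyte markers moved with diet in the same libraries. Cfd (adipsin) stood at 58.4 and 0 CPM in run A and at 214.2 and 4.56 CPM in run B (log2 -5.81), and Car3 at 175.3 and 0 CPM and at 260.0 and 74.5 CPM (log2 -2.48), so that 2 of 6 adipocyte genes tested were lower on high fat diet. All 10 adipocyte markers had UMIs in the members, and their sum was 370.1 and 53.6 CPM in run A and 666.5 and 148.9 CPM in run B, chow first. In the capillary gated cells of run B the sum was 2101 and 209.4 CPM, so it moved the same way there. The part of this RNA in the other diet calls was not tested; with the Adipoq condition dropped 72 genes were called, 39 of them among the 79. Of the haemoglobin genes, 3 of 3 tested were higher on high fat diet with run as a block, and the summed red cell genes stood at 12.8 and 440.3 CPM in run B. Of run B, leaving out mesentery on chow or adipose on chow gave 0 calls for diet in mesentery, adipose on high fat diet 1 and mesentery on high fat diet 6. DESeq2 with the run called 5 genes and limma-voom 36.

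Within adipose tissue the members on high fat diet had less adipocyte RNA. In run B, but not in run A, they also had more summed RNA of antigen presentation and macrophage genes. With run as a block 27 of 8246 genes (0.327%) were called, 14 higher (0.17%) and 13 lower (0.158%). Without the members with capillary genes 1 of 2125 genes was called. In run A those members were 0 of 19 on chow and 7 of 13 on high fat diet. In run B they were 82.9% on chow and 80.0% on high fat diet. The part of this makeup in the calls by diet in adipose was not tested. Fabp5, a fatty acid binding protein of capillary endothelium, stood at 257.4 CPM on chow and 3470 CPM on high fat diet in run A and at 2081 and 4046 CPM in run B (log2 2.39, SE 0.46, edgeR with run as a block, adjusted p = 0.000475). It was the 1 of 14 capillary and lipid uptake genes that passed. In mesentery it stood at 194.8 and 442.4 CPM and at 836.8 and 3087 CPM (log2 1.58, edgeR with run as a block, adjusted p = 0.0596), which did not pass. Igfbp3, an insulin-like growth factor binding protein, stood at 23.4 and 0 CPM in run A and at 133.4 and 19.8 CPM in run B (log2 -2.61, SE 0.58). Ptn stood at 187.2 and 0 CPM and at 57.6 and 1.30 CPM (log2 -5.40, SE 1.00), and Cyp26b1 at 163.8 and 22.1 CPM and at 39.5 and 7.45 CPM (log2 -2.72). Both runs moved the same way for these 4 genes. Igfbp3, Ptn and Cyp26b1 were named among the largest falls, for which that agreement was required.

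Of 6 MHC class II genes tested in adipose, 3 were higher on high fat diet, with a list median of 2.60. H2-Ab1 stood at 0 and 44.2 CPM in run A and at 1.58 and 54.1 CPM in run B (log2 4.94, SE 0.85, edgeR with run as a block, adjusted p = 2.83e-05). H2-Aa stood at 0 and 22.1 CPM and at 7.89 and 68.95 CPM (log2 3.00, SE 0.64). Cd74 (log2 2.74, edgeR with run as a block, adjusted p = 0.00135) went opposite ways, from 117.0 to 66.3 CPM in run A and from 12.6 to 162.8 CPM in run B. The summed MHC class II genes stood at 234.0 and 198.9 CPM in run A and at 41.04 and 371.9 CPM in run B, chow first. Macrophages also make these genes. The complement genes C1qb and C1qc and the lysozyme gene Lyz2 were the 3 of 5 macrophage genes that were higher, with C1qb at 0 and 44.2 CPM in run A and at 0.79 and 55.4 CPM in run B. The summed macrophage markers, 10 of 10 with UMIs in the members, stood at 257.4 and 154.7 CPM in run A and at 22.9 and 293.9 CPM in run B, chow first. In the capillary gated cells of run B the sum was 13.8 and 286.8 CPM, and its part in these calls was not tested.

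**Figure D5:**
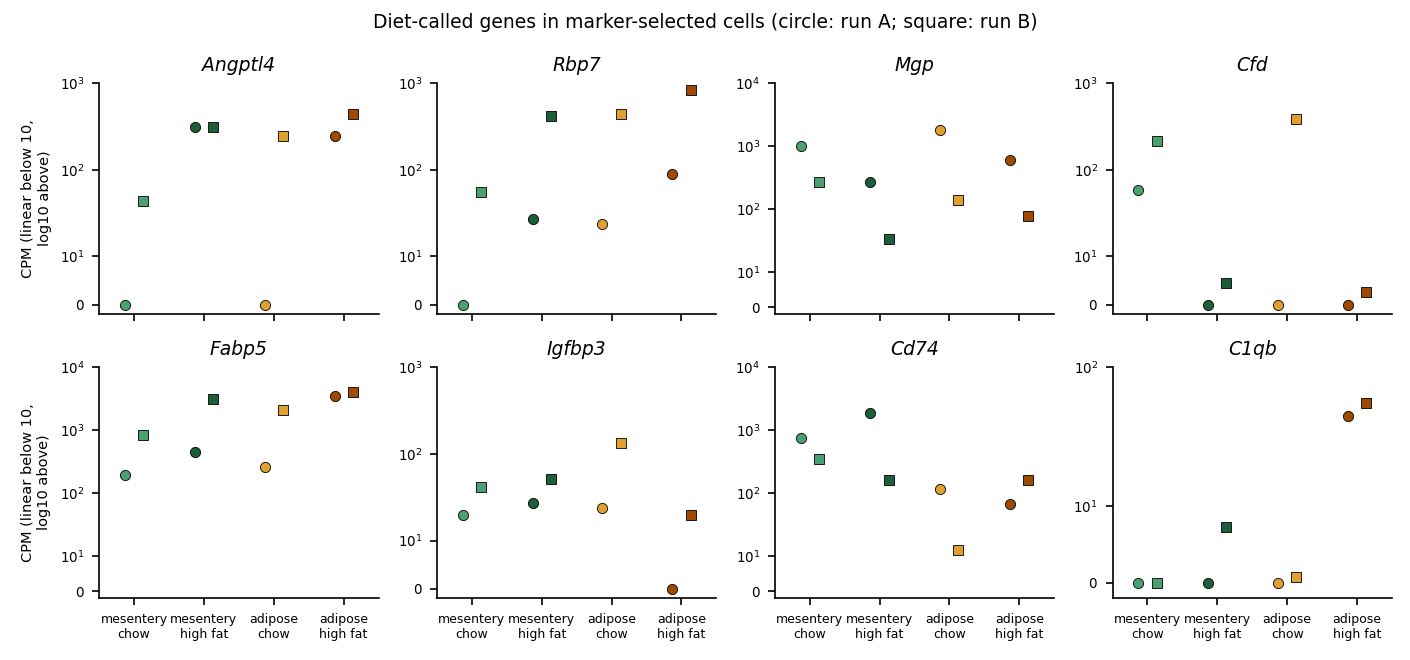
CPM in the members of each library for genes that differed by diet with run as a block (vertical axis: CPM, linear below 10 and log10 above; circles: run A, squares: run B, 1 point per library). Angptl4 in mesentery goes from 0 to 308.3 CPM in run A and from 43.95 to 313.8 CPM in run B, and Fabp5 in adipose from 257.4 to 3470 CPM and from 2081 to 4046 CPM.

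Adipocyte genes were lower in 5 of 6 cases on high fat diet in adipose. Cfd was at 0 in both libraries of run A and at 389.1 and 2.59 CPM in run B (log2 -6.92), and Car3 stood at 46.8 and 22.1 CPM and at 798.7 and 24.6 CPM (log2 -4.51). Retn (resistin), Scd1 and Cdo1 were at 0 in both libraries of run A, so their calls rest on run B. The summed adipocyte markers of the members stood at 1672 and 68.3 CPM in run B and at 46.8 and 22.1 CPM in run A. In the capillary gated cells of run B the sum was 2529 and 108.8 CPM. The summed red cell genes stood at 7.89 and 1726 CPM in the members of run B, and the haemoglobin calls were lost with the Adipoq condition dropped, where the adjusted p was 1.0. Glycam1 in adipose was called higher on high fat diet from 1 library, adipose on high fat diet of run B with 119.1 CPM, the other 3 adipose libraries being at 0. Of run B, leaving out adipose on chow gave 0 calls for diet in adipose, adipose on high fat diet 2, mesentery on chow 8 and mesentery on high fat diet 12. DESeq2 with the run called 4 genes and limma-voom 11.

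Whether diet acted differently in the 2 tissues was tested with an interaction term. Without the run edgeR called 0 of 8246 genes (39 had a p under 0.05 before adjustment), as did DESeq2 and limma-voom. With run as a block edgeR called 11 (0.133%), 3 higher (0.0364%) and 8 lower (0.097%), where higher means a more positive change in mesentery. DESeq2 and limma-voom with the run called 0 each. The lower ones held 3 of 10 high endothelial venule genes (Glycam1, Madcam1 and Gcnt1) and 1 of 6 MHC class II genes (H2-Ab1). The higher ones were the cell cycle genes Top2a and Mki67 and the doppel gene Prnd. In run B Prnd stood at 2.75 CPM in mesentery on chow, 39.1 CPM in mesentery on high fat diet, 52.1 CPM in adipose on chow and 5.18 CPM in adipose on high fat diet, and all 4 libraries of run A were at 0. No gene was called for the interaction when any library of run B was left out.

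No venous identity gene passed the test by diet. Of 16 tested, edgeR with run as a block called 0 in mesentery (3 positive, 13 negative, median -0.75, 6 at an unadjusted p under 0.05) and 0 in adipose (10 positive, 6 negative, median 0.09, 1 at an unadjusted p under 0.05). With the run, DESeq2 and limma-voom called 0 of them as well. Vcam1 stood in run B at 184.9 CPM in mesentery on chow, 96.9 CPM in mesentery on high fat diet, 92.3 CPM in adipose on chow and 103.6 CPM in adipose on high fat diet. In run A it stood at 467.5, 187.7, 631.8 and 176.8 CPM in that order. Of 14 cytokine signalling genes edgeR, DESeq2 and limma-voom with the run called 0 by diet in either tissue (2 in mesentery and 1 in adipose at an unadjusted p under 0.05 by edgeR). Il6st lay between 437.0 and 755.3 CPM in run B and between 631.8 and 1208 CPM in run A. A p that misses the threshold does not show that levels were equal.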

How the data were processed

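Gene expression in single cells of mouse mesentery and epididymal adipose tissue was measured in 8 libraries (2 pools of mice in each of 4 groups). The authors deposited raw matrices of UMI counts (genes by barcodes). Per the file headers, run A was made with Cell Ranger 3.0.2 and run B with 5.0.0, and the submitters' processing notes name Seurat 4.3.0 and mm10. The runs therefore differ in processing, mice and depth. The 30406 gene identifiers present in both feature lists were used. Barcodes with at least 500 UMIs, 300 genes and at most 10% mitochondrial UMIs were kept (23996 of 27944). Members, lists and comparisons were chosen with earlier results of these data known.

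Deposited counts were summed per library over the members and tested with edgeR 4.0.16 (R 4.3.3; TMM scaling, filterByExpr, quasi-likelihood test, Benjamini-Hochberg adjustment, threshold 0.05) without the run and with it as a block. DESeq2 1.42.0 and limma 3.58.1 were alternatives. CPM values printed are plain shares of the summed UMIs. The run letter was taken to pair samples, since the labels describe a repeat of the whole experiment and deviations from the group means correlated within runs (r 0.168 to 0.284 for 6 pairs of groups over 8259 genes). Shares used exact two-sided permutation tests. The labels do not say whether animals were shared between pools, and p-values measure the spread between these pools. Scrublet marked 51 cells as doublets by its automatic limit (0.21%), so limits set from the expected rate were used (858 cells) and the doublets left out only as an alternative. The other alternatives were other normalisations and filters, stricter marker and mitochondrial limits, thinning to 1000 UMIs, each library left out and, added after the data were seen, the Adipoq condition dropped and the members with high endothelial or capillary genes left out. Genes were named by a rule of smallest p, largest called change and list membership; haemoglobin genes are given as a group. The scripts were tested on simulated counts with planted log2 changes of 1 and 2. For diet in mesentery the fit without the run recovered 0% and 0% of them, and the fit with run as a block 4% and 33%. The comparison with venous cells recovered 77% and 86%. An absence of calls by diet or tissue therefore says little about whether levels were equal.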

Additional observations from a re-analysis of the deposited data

Results flagged for a closer look

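The diet change of 11 genes differed between mesentery and adipose tissue in the edgeR fit with run as a block (interaction term; change in mesentery minus change in adipose on the log2 scale). The values of the high endothelial genes were -10.08 for Glycam1 (adjusted p = 0.000262), -9.39 for Gcnt1 (adjusted p = 0.0186) and -7.98 for Madcam1 (adjusted p = 0.0356). Dsg2 stood at -9.57 (adjusted p = 0.000382), the neutrophil gene S100a8 at -10.97 (adjusted p = 0.00444), the sialic acid hydroxylase Cmah at -5.87 (adjusted p = 0.0133), Gas7 at -5.33 (adjusted p = 0.0428) and H2-Ab1 at -4.38 (adjusted p = 0.0433). The positive values were 10.6 for Top2a (adjusted p = 0.00444), 7.99 for Mki67 (adjusted p = 0.00813) and 6.86 for Prnd (adjusted p = 0.00219). The edgeR fit without the run called none of them, and none was called when any library of run B was left out. In mesentery, Glycam1 and Madcam1 were higher on high fat diet in run A and lower in run B, and S100a8 came from mesentery on chow of run B (65.0 CPM). Glycam1, Madcam1, Gcnt1, Dsg2, S100a8 and Top2a are at 0 in both libraries of at least 1 group, so the fitted values of these genes are no measure of fold.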

How the results depend on the processing

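For the diet comparison in mesentery, 0 calls without the run became 34 with limma-voom, 67 with low counts kept and 47 with at least 3 markers. With the replicate block they were 79, and then 5 with DESeq2, 36 with limma-voom, 80 with low counts kept, 82 with at least 3 markers, 73 without doublets, 53 with the stricter mitochondrial limit, 72 with the Adipoq condition dropped, 45 without members with high endothelial genes and 2 without those with capillary genes. In the same order of settings the diet comparison in adipose gave, without the run, 25 without the filter and 6 with at least 3 markers, and with the replicate block 27, then 4, 11, 34, 12, 20, 25, 73, 26 and 1. Tissue on chow gave, without the run, 2 with DESeq2, 98 without the filter, 33 with at least 3 markers, 2 with the mitochondrial limit and 1 with the Adipoq condition dropped, and with the replicate block 117, then 16, 40, 111, 67, 104, 104, 119, 27 and 19. Tissue on high fat diet gave 65 without the filter and 11 with at least 3 markers, and with the replicate block 20, then 22 without the filter, 10 with at least 3 markers, 15 without doublets, 15 with the mitochondrial limit, 22 with the Adipoq condition dropped and 6 without high endothelial members. The interaction gave 10 without the filter and 11 with at least 3 markers, and with the replicate block 11, then 14 without the filter, 29 with at least 3 markers, 8 without doublets, 10 with the mitochondrial limit, 20 with the Adipoq condition dropped and 3 without high endothelial members. The 535 calls against venous cells became 1432 without the filter and 26 (of 361 tested) after thinning, and the 743 against capillary gated cells 1274, 269 (of 675 tested) after thinning and 486 with at least 3 markers. The diet by class interactions gave 1 and 2 calls without the filter. The share by diet in mesentery turned to -0.94 after thinning, and the share by tissue to -0.3 with at least 3 markers and -0.09 with the Adipoq condition dropped.

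Leaving out each library in turn gave 0.16 to 2.33 for the share by diet in mesentery, -0.82 to 1.87 in adipose, 0.47 to 1.4 over both and -0.52 to 0.6 by tissue. Calls ranged from 0 to 131 for diet in mesentery (0 to 205 with the replicate block), 0 to 32 for diet in adipose (0 to 53), 0 to 104 for tissue on chow (0 to 204), 0 to 10 for tissue on high fat diet (0 to 44) and 0 to 25 for the interaction (0 to 55). They ranged from 327 to 684 against venous cells, 281 to 861 against capillary gated cells, and 0 to 3 and 0 to 1 for diet by class in mesentery and adipose. With the replicate block, leaving out mesentery on chow or on high fat diet of run A raised the calls for diet in mesentery to 204 and 205.

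Of the named genes' values under the alternatives, 2114 kept direction and side of the threshold, 741 passed where the edgeR fit without the run had not, 10 no longer passed and 15 reversed. Leaving out each library in turn, the changes of named genes with a reversal ranged from -3.03 to 7.16 for Atf3, -10.4 to 4.37 for Cfd and 0.00 to 10.16 for Glycam1 by diet in adipose, from -8.98 to 11.34 for Car4, -6.88 to 9.67 for Ednrb, -0.63 to 10.92 for Rbp7 and -4.0 to 1.06 for Glycam1 by diet in mesentery, from -4.97 to 1.01 for Gpihbp1 and -11.03 to 0.9 for Rbp7 by tissue on chow and from -0.8 to 0.06 for Lrg1 against venous cells. Glycam1 by diet in mesentery also turned to 0.16 without capillary members in the fit with the replicate block. Glycam1 by tissue on high fat diet turned to -3.87 with at least 3 markers (-4.64 with the replicate block), and Clu by diet in mesentery to 0.42 without high endothelial members. The cause of these changes was not tested, beyond the smaller number of cells or genes that each alternative keeps. Run A limits all comparisons, since 56 members carry 2.6% of the UMIs.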
